A study of Mus musculus with 6 samples.

Results

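The 32 genes described here make cholesterol, control its synthesis, move it within the cell, load it onto lipoproteins, or store and clear it. They were taken from the count table by gene name, from a list chosen by function, and all 32 of the 53715 annotated genes had 1 row each and enough counts to test. They comprise 18 enzymes of synthesis from Acat2 to Dhcr7, 5 sensors and regulators, 3 genes of uptake and intracellular transport, 4 genes of export and lipoproteins, and 2 genes of storage and turnover. The hippocampus of male C57BL/6J mice, an inbred strain, aged 2 to 3 months was profiled by messenger RNA sequencing. For 3 weeks, 3 mice received the control diet and 3 received the ketogenic diet, in which fat replaces most carbohydrate. No transgene, mutation or drug is named in the labels for either group. The libraries are called control 1 to 3 and ketogenic 1 to 3 after the numbers in their labels, and the labels state no pairing.

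Brain cholesterol is made within the brain, because lipoproteins of the blood do not cross the blood-brain barrier. Acetyl groups are joined and reduced to mevalonate, built up to squalene, closed to lanosterol and trimmed to cholesterol. When sterols run low in the endoplasmic reticulum, SCAP carries the SREBP transcription factors to the Golgi for cleavage, and the freed factors raise genes of synthesis and uptake, while INSIG proteins hold the complex back when sterols are plentiful. Cholesterol in excess activates the LXR receptors, which raise export genes such as Abca1 and Abcg1. Neurons also clear cholesterol by turning it into a hydroxysterol that leaves the brain, and oligodendrocytes use much of it for myelin.

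Library totals ran from 16832240 to 18357792 gene counts, and 16478 genes were tested. Levels are in CPM, the usual scaling of gene counts by library size, here with TMM factors, and means carry the SD over 3 mice. Differences are log2 ratios of ketogenic to control levels ± standard error, with adjusted p from edgeR's quasi-likelihood test and Benjamini-Hochberg adjustment over all tested genes, and a gene is said to have risen or fallen where that p is under 0.05. The libraries differed between the diets in several cell type markers. The 10 choroid plexus markers all fell and summed to 800.4 to 7251 CPM in the control libraries, with control 1 highest, and to 53.3 to 99.3 CPM in the ketogenic libraries. The most abundant of them were Ttr, at 6442, 3373 and 704.1 CPM in control 1, 2 and 3, and Kl, at 289.8, 142.4 and 47.3 CPM. Of 12 oligodendrocyte markers 10 fell and none rose, and their sum was 5539 to 7002 CPM in control and 2952 to 4027 CPM in ketogenic libraries. Mbp stood at 2945 ± 257 and 1498 ± 217 CPM in control and ketogenic libraries. None of 10 astrocyte markers passed the test, 1 of them at an unadjusted p under 0.05, with sums of 5177 to 5669 and 5354 to 5589 CPM and the most abundant members Slc1a2 and Aldoc at log2 differences of -0.07 ± 0.06 and 0.10 ± 0.06 (adjusted p = 0.579 and 0.324). Of 6 fibroblast markers 5 rose, with a median log2 difference of 1.20 and sums of 43.1 to 62.4 CPM in control, control 1 lowest, and 138.2 to 210.9 CPM in ketogenic libraries. Of the hippocampal neuron lists, 4 of 5 dentate granule cell markers fell, with sums of 622.6 to 760.5 and 246.7 to 430.7 CPM, and 3 of 4 CA3 markers fell, with sums of 996.7 to 1107 and 723.3 to 835.9 CPM. None of 8 microglia and 6 endothelium markers passed, at an unadjusted p under 0.05 0 and 1 of them. The 8 neuron markers, which check the labelled tissue, summed to 9444 to 11345 CPM. The extraction protocol names retina, and the 8 retina markers summed to 2.37 to 3.45 CPM in all, with Crx at 0 in every library.

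Of the 32 sterol genes 6 rose and 1 fell with the ketogenic diet. The genes that rose were the synthesis enzymes Fdft1, Sqle, Cyp51 and Msmo1, the transport gene Stard4 and the turnover gene Cyp46a1, and the gene that fell was Npc1. Among all tested genes 5.05% rose and 4.62% fell, 9.67% in all. The ketogenic libraries lay wholly above the control libraries for 10 of the 32 genes and wholly below for 3, against 14% and 13.6% of all tested genes. The median log2 difference of the 32 genes was 0.15 and that of all tested genes -0.01. These are small differences, from -0.33 to 0.64 on the log2 scale.

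**Figure D1:**
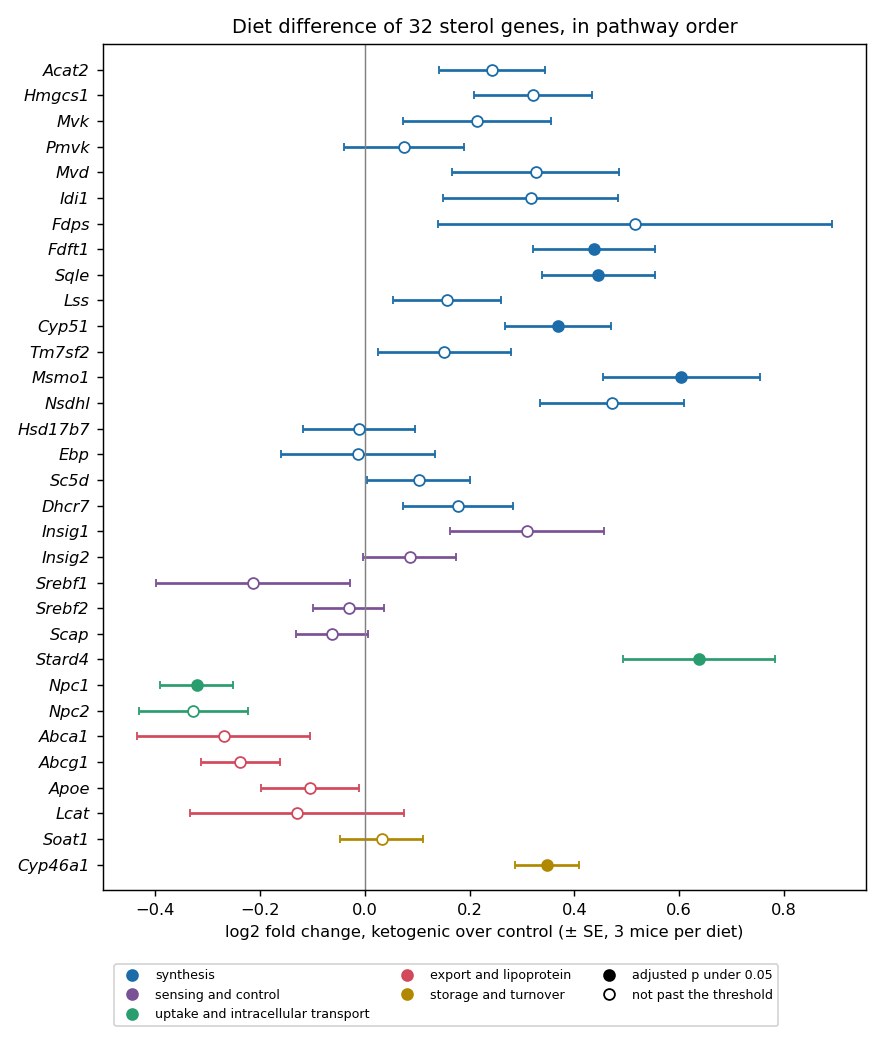
The log2 fold change of each of the 32 sterol genes, ketogenic over control, is plotted with its standard error on the horizontal axis, with genes in pathway order from top to bottom, colours for the functional groups and filled points for an adjusted p under 0.05. Synthesis enzymes lie between -0.01 and 0.60, and the 4 export genes between -0.27 and -0.10.

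Among the 18 synthesis enzymes 4 rose, none fell and 14 did not pass the test, beside 5.05% of all tested genes that rose. At an unadjusted p under 0.05, 7 were higher and 0 lower, against 11.7% and 11.4% of all tested genes, and in DESeq2 6 rose and none fell, where 5.86% and 5.49% of all genes did. The log2 difference was above 0 for 16 of the 18, with a median of 0.28, while it was above 0 for 49.1% of all tested genes. The first part of the pathway, the 8 enzymes to squalene, had 1 enzyme that rose and a median of 0.32, and the 10 enzymes from squalene epoxidase on had 3 that rose and a median of 0.17. The mean log2 CPM of the early and late enzymes differed by 0.32 and 0.25 between the diets, and the difference between the parts was not tested. The values of all enzymes and of the early part include Fdps, which had few counts. With Fdps removed by a filter at a mean of 1 CPM, the synthesis median was 0.24 and 15 enzymes were above 0.

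The opening steps had higher values in ketogenic libraries that did not pass the test. Acat2, which joins acetyl-CoA units, stood at 22.8, 27.7 and 26.6 CPM in control 1, 2 and 3 and at 28.8, 31.6 and 30.8 CPM in ketogenic 1, 2 and 3. The diets did not overlap for Acat2, and the difference was 0.24 ± 0.10 (adjusted p = 0.178). Hmgcs1, the cytosolic HMG-CoA synthase, had 112.0, 156.1 and 155.6 CPM under the control diet and 179.0, 180.6 and 169.7 CPM under the ketogenic diet. All ketogenic values lay above the control values, and control 1 was far below the other controls. The difference of Hmgcs1 was 0.32 ± 0.11 (adjusted p = 0.110), and without control 1 it was 0.18.

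The kinases and decarboxylase that turn mevalonate into isopentenyl diphosphate did not pass. Mvk and Pmvk, the mevalonate and phosphomevalonate kinases, stood at 0.21 ± 0.14 and 0.075 ± 0.11 with overlapping diets (adjusted p = 0.425 and 0.763). Mvd, the diphosphomevalonate decarboxylase, had 9.58, 14.8 and 13.9 CPM in control and 15.5, 15.8 and 16.7 CPM in ketogenic libraries. These did not overlap, with a difference of 0.33 ± 0.16 (adjusted p = 0.256), which was 0.16 without control 1. Idi1, the isomerase that makes the building blocks reactive, stood at 0.32 ± 0.17 (adjusted p = 0.301). Its ketogenic 3 value of 24.2 CPM was the highest of the 6, and the diets overlapped. The Idi1 difference was 0.17 without control 1 and 0.15 without ketogenic 3, and that of Mvk was 0.10 without control 1 and 0.099 without ketogenic 1.

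Fdps, the farnesyl diphosphate synthase, had only 83 counts in all 6 libraries together. Its levels were 0.655 ± 0.154 and 0.938 ± 0.201 CPM, and its difference of 0.52 ± 0.38 (adjusted p = 0.473) has the largest standard error of the 32 genes. In the deposited annotation 7512 bases of the Fdps locus are shared, on the same strand, with the protein-coding gene Gm43738, which had 0 counts. No source used here says how reads in shared sequence were counted, and the low level of Fdps is uncertain. The same holds for Tm7sf2, a sterol reductase that shares 9356 bases on its strand with Vps51, and for Mvd, which shares 9822 bases with Gm20388 on the other strand.

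Fdft1 and Sqle, which encode consecutive enzymes that commit farnesyl diphosphate to sterols, both rose. Fdft1, the squalene synthase gene (ENSMUSG00000021273, chromosome 14, 63145150 to 63179578, minus strand, coordinates as deposited on GRCm38), had 44.3, 62.3 and 61.4 CPM in control and 77.0, 73.2 and 77.3 CPM in ketogenic libraries. The ketogenic values were close to each other and above every control value. The difference was 0.44 ± 0.12 (adjusted p = 0.0412). It stood at 0.29 without control 1 (adjusted p = 0.0467), and the call was lost without control 2 or ketogenic 1, 2 or 3 (adjusted p between 0.0607 and 0.121). Fdft1 overlaps 774 bases of Ctsb on the other strand, and Ctsb, with 48239 counts in all, stood at -0.05 ± 0.05 (adjusted p = 0.647).

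Sqle, the squalene epoxidase gene and a slow step of the pathway (ENSMUSG00000022351, chromosome 15, 59315077 to 59331192, plus strand), had 39.9, 52.8 and 48.5 CPM in control and 60.7, 61.0 and 70.5 CPM in ketogenic libraries. The diets did not overlap, with control 1 lowest and ketogenic 3 highest. The difference was 0.45 ± 0.11 (adjusted p = 0.0282). The call was lost without control 1, ketogenic 2 or ketogenic 3 (adjusted p = 0.0652, 0.0869 and 0.0991). Lss, the lanosterol synthase that closes the ring, stood at 0.16 ± 0.10 (adjusted p = 0.423), with 31.1, 34.3 and 26.9 CPM in control and 33.5, 36.0 and 33.4 CPM in ketogenic libraries, which overlapped. It was 0.24 without control 2 and 0.069 without control 3.

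Of the enzymes that trim lanosterol, Cyp51 and Msmo1 rose. Cyp51, the lanosterol demethylase gene (ENSMUSG00000001467, chromosome 5, 4081145 to 4104746, minus strand), had 42.7, 54.2 and 53.5 CPM in control and 65.3, 60.2 and 68.7 CPM in ketogenic libraries. There was no overlap, and the difference was 0.37 ± 0.10 (adjusted p = 0.0447). This call was close to the threshold and was kept, of the 6 fits with 1 library left out, only without control 3, with adjusted p of 0.0762 to 0.138 in the others. Cyp51 shares 166 bases with Akap9 on the other strand, which stood at -0.12 ± 0.08 (adjusted p = 0.452).

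Msmo1, the methylsterol monooxygenase gene (ENSMUSG00000031604, chromosome 8, 64718139 to 64733792, minus strand), rose. Its values were 36.1, 56.1 and 58.2 CPM in control and 76.1, 72.0 and 80.5 CPM in ketogenic libraries. Control 1 was well below the rest, and the other controls were still below every ketogenic library. The difference was 0.60 ± 0.15 (adjusted p = 0.0309), a 1.52-fold higher level, and 0.41 without control 1 (adjusted p = 0.0154). The call was lost without control 2 or ketogenic 1, 2 or 3 (adjusted p between 0.0611 and 0.0949), and without control 1 and 2 the difference was 0.39 (adjusted p = 0.123).

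Nsdhl, which acts with Msmo1 in removing methyl groups, had 11.4, 15.9 and 12.8 CPM in control and 17.5, 18.7 and 19.5 CPM in ketogenic libraries. These did not overlap, and the difference of 0.47 ± 0.14 missed the threshold (adjusted p = 0.0578). The partner in the same complex, Hsd17b7, stood at -0.01 ± 0.11 (adjusted p = 0.966) and the isomerase Ebp at -0.01 ± 0.15 (adjusted p = 0.973). The closing enzymes Sc5d, a sterol desaturase, and Dhcr7, the reductase of the last double bond in one branch, stood at 0.10 ± 0.10 and 0.18 ± 0.10 (adjusted p = 0.598 and 0.360), and Tm7sf2 at 0.15 ± 0.13 (adjusted p = 0.541). The diets overlapped for these 5 genes. Without control 1, Dhcr7 and Tm7sf2 stood at 0.090 and 0.083, and Tm7sf2 at 0.088 without ketogenic 1.

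**Figure D2:**
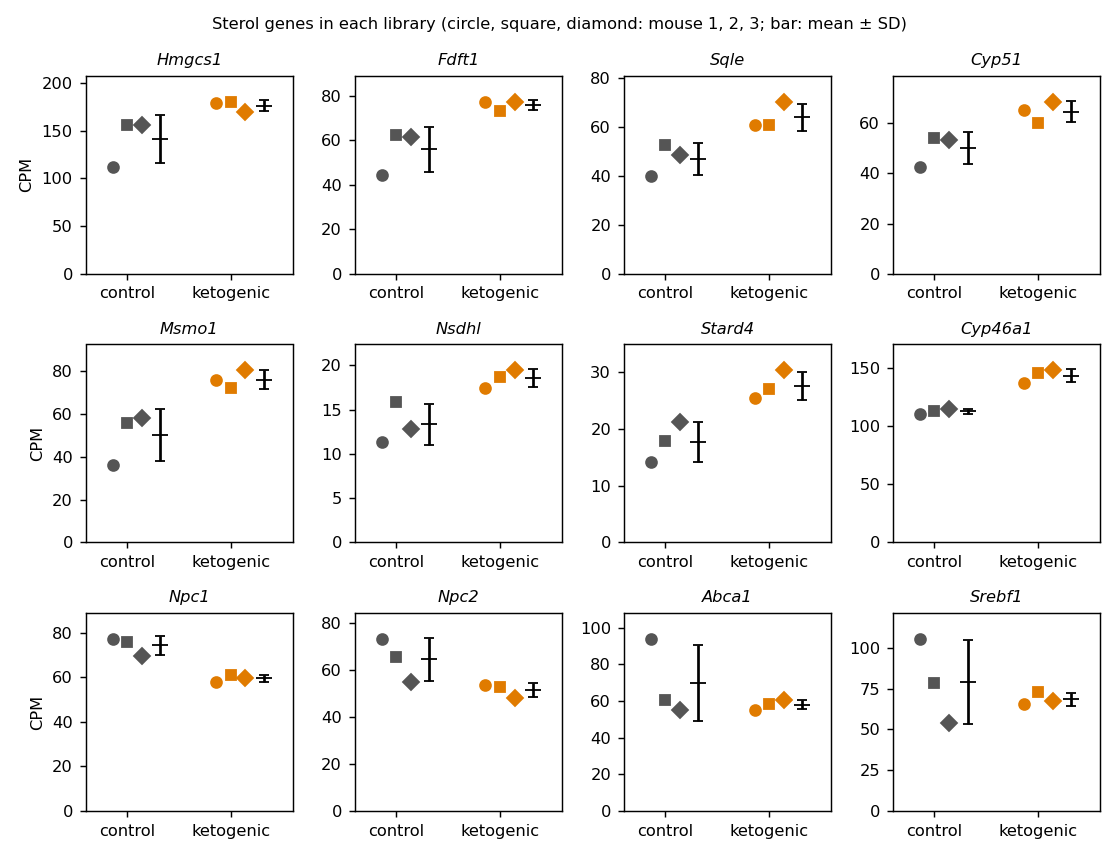
The CPM of 12 sterol genes is plotted on the vertical axis for each library, with control libraries in grey, ketogenic libraries in orange, symbols for mouse 1, 2 and 3, and the mean ± SD beside each group. Fdft1, Sqle, Cyp51, Msmo1, Stard4 and Cyp46a1 lie higher in all ketogenic libraries and Npc1 lies lower. Control 1 stands apart in most synthesis genes shown and in Abca1, and the controls of Srebf1 spread to both sides of the ketogenic values.

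Control 1 was the lowest of the 6 libraries for 15 of the 18 synthesis enzymes, whereas it was the lowest for 19.2% of all tested genes. The same library held the most choroid plexus transcripts, and whether these move the sterol values was not tested. The controls of Msmo1, Stard4 and Cyp46a1, which rose, ran in the reverse order of the choroid plexus sums. Of the 32 genes 7 had that reverse order and 6 the same order, against 21.0% and 21.1% of all tested genes. With control 1 set aside, all ketogenic libraries still lay above control 2 and 3 for 9 of the 18 enzymes, against 18.5% of all tested genes. These 9 include Fdps, whose low level is uncertain and whose diets overlapped with control 1 kept. In a fit without control 1 the synthesis median was 0.16, 15 enzymes were above 0, and Fdft1 and Msmo1 passed the test. With control 1 and 2 both left out, no synthesis enzyme passed, 14 were above 0 and the median was 0.20, and the lone control library is assumed there to vary like the others. The summed oligodendrocyte markers were lower in ketogenic libraries, the opposite direction to the synthesis enzymes. The summed fibroblast markers were higher there and lowest in control 1, the same direction and the same lowest library. Of 10 astrocyte markers 8 had log2 differences above 0, with a median of 0.15, and control 1 was the lowest library for 6 of them. Control 1 also had the lowest astrocyte and endothelium sums of the 6 libraries, though both sums overlapped between the diets. The part of these markers in the result was not tested. Fewer cells of a type and less RNA per cell cannot be told apart in these libraries.

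Promoter windows of RefSeq on GRCm38.p6, each with 250 bases before and 50 from the start site on, were searched because the synthesis genes are known to share SREBP, NF-Y and Sp1 control. Windows were found for 26 of the 32 genes, 36 windows in all, and none for Fdps, Fdft1, Sqle, Stard4, Npc1 and Abcg1. The motifs, on both strands, were the sterol regulatory element TCACNCCAC, the NF-Y box CCAAT and the Sp1 box GGGCGG, and matches of different motifs did not overlap in the member windows. Of 18 windows of synthesis genes 14 held CCAAT and 15 held GGGCGG, that is 77.8% and 83.3%. Of all 32851 windows 37.4% and 35.7% held them. The boxes were not particular to synthesis genes. Of the 10 windows of sensing and control genes 5 held CCAAT and 8 held GGGCGG. The 2 windows of storage and turnover genes and the 1 window of the uptake group, that of Npc2, held both. Of the 5 windows of export genes, 1 held CCAAT, that of Lcat, and 1 held GGGCGG, that of Abca1. All the rest were alternative starts of Apoe and held neither box. Windows and not genes were counted, and the synthesis windows also include alternative starts of Pmvk and Dhcr7. Those of sensing and control include alternative starts of Insig2, Srebf1 and Scap. The sterol element as spelled here was in 1 member window, that of Hmgcs1, and in 1.24% of all windows. The windows of Hmgcs1 (chr13:119690101-119690400, plus strand), of the genes Cyp51 (chr5:4104648-4104947, minus strand) and Msmo1 (chr8:64733529-64733828, minus strand), which rose, and of Cyp46a1 (chr12:108334066-108334365, plus strand), the turnover gene that rose, are printed to show how the boxes are spaced. Capitals mark the motifs on either strand.
Hmgcs1: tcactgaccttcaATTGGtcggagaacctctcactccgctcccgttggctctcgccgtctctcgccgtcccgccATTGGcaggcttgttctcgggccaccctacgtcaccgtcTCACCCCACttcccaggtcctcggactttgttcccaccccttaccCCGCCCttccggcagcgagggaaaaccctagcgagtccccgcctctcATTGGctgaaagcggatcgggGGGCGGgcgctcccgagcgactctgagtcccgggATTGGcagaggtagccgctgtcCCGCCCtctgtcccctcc
Cyp51: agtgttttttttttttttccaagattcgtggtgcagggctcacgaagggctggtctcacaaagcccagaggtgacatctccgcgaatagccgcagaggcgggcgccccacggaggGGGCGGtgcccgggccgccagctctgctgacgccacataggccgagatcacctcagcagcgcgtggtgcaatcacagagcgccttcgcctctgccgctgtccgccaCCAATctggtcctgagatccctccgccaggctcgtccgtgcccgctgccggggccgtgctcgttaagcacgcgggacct
Msmo1: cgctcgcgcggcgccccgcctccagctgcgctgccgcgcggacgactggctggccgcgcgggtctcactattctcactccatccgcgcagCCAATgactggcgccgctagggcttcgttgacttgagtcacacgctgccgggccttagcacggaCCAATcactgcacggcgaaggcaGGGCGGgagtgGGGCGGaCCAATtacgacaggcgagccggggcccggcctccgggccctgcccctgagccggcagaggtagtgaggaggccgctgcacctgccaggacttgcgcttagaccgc
Cyp46a1: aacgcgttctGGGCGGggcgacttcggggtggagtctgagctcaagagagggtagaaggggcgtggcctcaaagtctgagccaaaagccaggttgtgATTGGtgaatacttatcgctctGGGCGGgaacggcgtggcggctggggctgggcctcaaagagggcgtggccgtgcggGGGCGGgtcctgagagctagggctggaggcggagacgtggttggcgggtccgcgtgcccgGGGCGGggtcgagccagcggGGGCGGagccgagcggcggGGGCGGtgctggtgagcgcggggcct
In Hmgcs1 the sterol element began 137 bases before the start, between CCAAT boxes that began 176 and 45 bases before it, both on the minus strand. Msmo1 had CCAAT at 160, 96 and 55 bases before the start and GGGCGG at 73 and 62 bases before it. Cyp51 had 1 CCAAT, 29 bases before the start, and 1 GGGCGG, 135 bases before it. Cyp46a1 had 1 CCAAT and 6 GGGCGG boxes. Distances are counted from the start site of the RefSeq window, which need not be the deposited gene start. For Hmgcs1 and Cyp46a1 the stretch checked just after that site was not found in a GENCODE transcript of the gene. The Cyp46a1 window ends at 108334365, before the deposited gene start at 108334381. A match is a run of letters in this window and was not tested as a binding site.

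The sensors and regulators of synthesis did not pass the test, 0 of 5 in edgeR, also 0 at an unadjusted p under 0.05, and 0 in DESeq2. Of all tested genes 9.67% passed in edgeR, and 11.7% were higher and 11.4% lower at an unadjusted p under 0.05. In DESeq2 5.86% rose and 5.49% fell, so 0 of 5 does not set these genes apart. Insig1, itself a known SREBP target that retains SCAP, had 39.5, 60.3 and 44.9 CPM in control and 65.0, 62.9 and 51.3 CPM in ketogenic libraries. These overlapped, since control 2 exceeded ketogenic 3, and the difference was 0.31 ± 0.15 (adjusted p = 0.244), with 0.18 without control 1 and 0.50 without control 2. Its relative Insig2 stood at 0.09 ± 0.09 (adjusted p = 0.635). Srebf2, the main transcription factor of the pathway, was among the most abundant members at 252.5 ± 17.1 and 247.1 ± 10.3 CPM, a difference of -0.03 ± 0.07 (adjusted p = 0.842). Scap stood at -0.06 ± 0.07 (adjusted p = 0.659).

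Srebf1, better known for fatty acid synthesis and as an LXR target, varied more among controls than between diets. It had 105.5, 78.5 and 53.9 CPM in control 1, 2 and 3 and 65.4, 72.7 and 67.2 CPM in ketogenic libraries. The controls spanned the ketogenic range on both sides and followed the order of the choroid plexus sums, 7251, 3761 and 800.4 CPM, whose part was not tested. The difference was -0.21 ± 0.19 (adjusted p = 0.558), it turned to 0.047 without control 1, and it was -0.43 without control 3 (adjusted p = 0.0405). Srebf1 shares 109 bases with Rai1 on the other strand, which stood at -0.05 ± 0.07 (adjusted p = 0.742).

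The 3 genes of uptake and intracellular transport moved in different directions. Stard4, a carrier that moves cholesterol between membranes and a known SREBP target (ENSMUSG00000024378, chromosome 18, 33199355 to 33213862, minus strand), rose. It had 14.1, 17.9 and 21.1 CPM in control and 25.3, 27.0 and 30.3 CPM in ketogenic libraries. All ketogenic values exceeded the highest control, and the difference was 0.64 ± 0.15 (adjusted p = 0.0218), a 1.56-fold higher level. Stard4 and Msmo1 differed in size by less than their standard errors. It was 0.50 without control 1 (adjusted p = 0.0461), and the call was lost without control 2, ketogenic 2 or ketogenic 3 (adjusted p = 0.0811, 0.0859 and 0.0798). Without control 1 and 2 it was 0.38 (adjusted p = 0.304).

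Npc1 and Npc2 encode a pair of proteins that pass cholesterol out of lysosomes. Npc1 (ENSMUSG00000024413, chromosome 18, 12189693 to 12236400, minus strand) fell, with 77.2, 76.05 and 69.6 CPM in control and 57.8, 60.85 and 59.7 CPM in ketogenic libraries. The diets did not overlap, and the difference was -0.32 ± 0.07 (adjusted p = 0.0183). The call was lost without control 1, control 2 or ketogenic 2 (adjusted p = 0.0566, 0.0854 and 0.0763). Npc2 had 73.4, 65.8 and 55.1 CPM in control and 53.9, 52.9 and 48.0 CPM in ketogenic libraries. The lowest control and the highest ketogenic value of Npc2 were close, and the difference of -0.33 ± 0.10 did not pass (adjusted p = 0.0784). Npc1 overlaps 305 bases of 3110002H16Rik on the other strand, which stood at -0.04 ± 0.10 (adjusted p = 0.871). In both Npc1 and Npc2 the controls followed the order of the choroid plexus sums, against 21.1% of all tested genes. The part of choroid plexus in the difference was not tested.

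The 4 genes of export and lipoproteins had log2 differences below 0 in each case, against 50.9% of all tested genes, and none passed. In edgeR 0 of 4 passed, beside 9.67% of all tested genes. In DESeq2 0 passed, where 5.86% of all genes rose and 5.49% fell, so 0 of 4 does not set these genes apart. At an unadjusted p under 0.05 in edgeR 1 was lower, beside 11.4% of all tested genes. The median log2 difference of the 4 genes was -0.18. Abcg1, a sterol exporter, had 69.5, 64.7 and 60.1 CPM in control and 56.1, 53.2 and 55.6 CPM in ketogenic libraries. These did not overlap, and the difference was -0.24 ± 0.08 (adjusted p = 0.0795). Abca1, the exporter that loads lipid-poor apolipoproteins, had 93.9, 60.6 and 55.3 CPM in control and 55.3, 58.5 and 60.3 CPM in ketogenic libraries. Control 1 alone stood above the rest, the difference was -0.27 ± 0.16 (adjusted p = 0.383), and it was 0.00080 without control 1 and -0.41 without control 3.

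Apoe, the main apolipoprotein made by astrocytes, was the most abundant of the 32 genes. It had 1893, 1605 and 1456 CPM in control and 1601, 1577 and 1432 CPM in ketogenic libraries. The diets overlapped, the difference was -0.10 ± 0.09 (adjusted p = 0.574), and without control 1 it was 0.0049. Lcat, which esterifies cholesterol on lipoproteins, had 15.9, 22.3 and 28.0 CPM in control and 24.8, 16.5 and 19.2 CPM in ketogenic libraries. Its difference was -0.13 ± 0.20 (adjusted p = 0.772), and its controls ran opposite to those of Apoe, Abca1 and Abcg1. The controls of those 3 genes followed the order of the choroid plexus sums, against 21.1% of all tested genes. The part of choroid plexus in the export values was not tested. Control 1 was the highest of the 6 libraries for 3 of the 4 export genes, against 20.1% of all tested genes.

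Of the storage and turnover genes 1 of 2 rose, beside 5.05% of all tested genes. Cyp46a1, the neuronal enzyme that hydroxylates cholesterol for its exit from the brain (ENSMUSG00000021259, chromosome 12, 108334381 to 108362234, plus strand), had 110.3, 113.0 and 115.0 CPM in control and 137.1, 145.4 and 148.0 CPM in ketogenic libraries. Within each diet the values were close, and the diets were far apart. The difference was 0.35 ± 0.06 with the smallest adjusted p of the 32 genes (0.00666), and stayed between 0.32 and 0.38 over 16 alternative analyses. The call was lost without ketogenic 2 (adjusted p = 0.0512), without control 1 and 2 (0.153) and on log2(FPKM + 0.1) values (0.0642). Soat1, which stores cholesterol as esters, stood at 38.0 ± 0.969 and 38.9 ± 2.15 CPM, a difference of 0.03 ± 0.08 (adjusted p = 0.863). Cyp46a1 is a neuronal gene, and among the 8 neuron markers 1 rose, 2 fell and the summed level was 11052 to 11345 CPM in control and 9444 to 10425 CPM in ketogenic libraries. Dentate granule cell and CA3 markers had medians of -0.99 and -0.61, with 4 of 5 and 3 of 4 fallen and none risen, and the part of all these markers in the Cyp46a1 result was not tested.

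Synthesis and export were then set side by side in each library, as the mean log2 CPM of each group relative to its mean over the 6 libraries. Synthesis stood at -0.33, -0.03 and -0.06 in control 1, 2 and 3 and at 0.14, 0.10 and 0.18 in ketogenic 1, 2 and 3. Export stood at 0.17, 0.05 and 0.04 in control and at 0.0012, -0.15 and -0.10 in ketogenic libraries. The ketogenic libraries thus had the higher mean for synthesis and the lower mean for export in every case. Control 1 was the extreme library of both groups and had the highest choroid plexus sum, whose part was not tested. Of the 4 export genes only 1, Abcg1, had diets that did not overlap. Apoe in ketogenic 1 and 2, at 1601 and 1577 CPM, exceeded control 3 at 1456 CPM. Lcat in control 3, at 28.0 CPM, exceeded every ketogenic library. Synthesis minus export was -0.50, -0.08 and -0.09 in control and 0.14, 0.26 and 0.28 in ketogenic libraries. These are descriptive values, and no p is given for a score over chosen genes. Without control 1 the fitted medians were 0.16 for synthesis and -0.09 for export, and without control 1 and 2 they were 0.20 and -0.03.

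**Figure D3:**
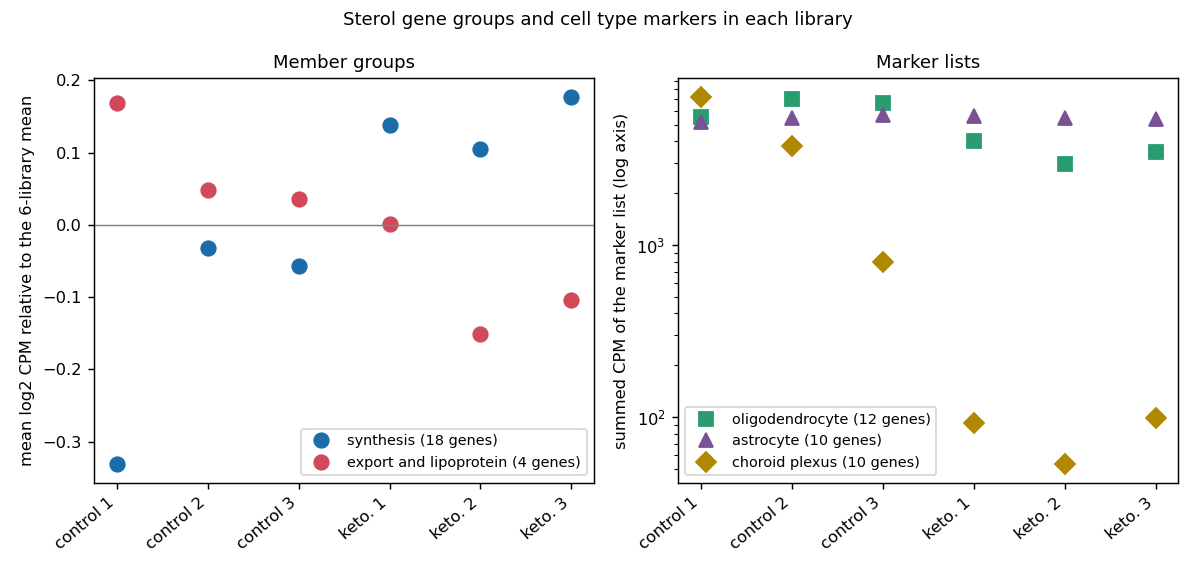
The left panel plots the mean log2 CPM of 18 synthesis and 4 export genes relative to the 6-library mean on the vertical axis, by library, and the right panel plots the summed CPM of oligodendrocyte, astrocyte and choroid plexus markers on a log axis. Synthesis runs from -0.33 in control 1 to 0.18 in ketogenic 3, export runs the other way, and choroid plexus sums fall from 7251 CPM in control 1 to between 53.3 and 99.3 CPM in ketogenic libraries.

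Levels of different genes were compared on the deposited FPKM values, which are scaled by gene length. Apoe had 766.9 ± 103 FPKM in control and 713.7 ± 41.2 FPKM in ketogenic libraries, far above every other member. Srebf2 and Cyp46a1 followed in control libraries at 34.9 ± 2.32 and 34.1 ± 0.720 FPKM, which differed by less than their spread, and Hmgcs1 was next at 30.5 ± 5.45 FPKM. In ketogenic libraries Cyp46a1 stood at 43.4 ± 1.78, Hmgcs1 at 38.1 ± 1.20 and Srebf2 at 34.2 ± 1.44 FPKM. The order of these 3 means differed between the diets, with Srebf2 first in one and last in the other. Of the enzymes after Hmgcs1 the most abundant in control libraries were Sc5d, Fdft1 and Pmvk at 14.3 ± 1.62, 13.1 ± 2.37 and 13.0 ± 1.56 FPKM, which did not differ beyond their spread. The lowest, beside Fdps, were Tm7sf2 at 2.09 ± 0.177 and Lss at 2.83 ± 0.340 FPKM. The level of Tm7sf2 is uncertain, as said above. This ranking rests on the deposited gene lengths, 10787 bases for Lss and 1713 for Pmvk. In CPM, Lss at 30.8 was above Pmvk at 22.4 in control libraries.

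**Figure D4:**
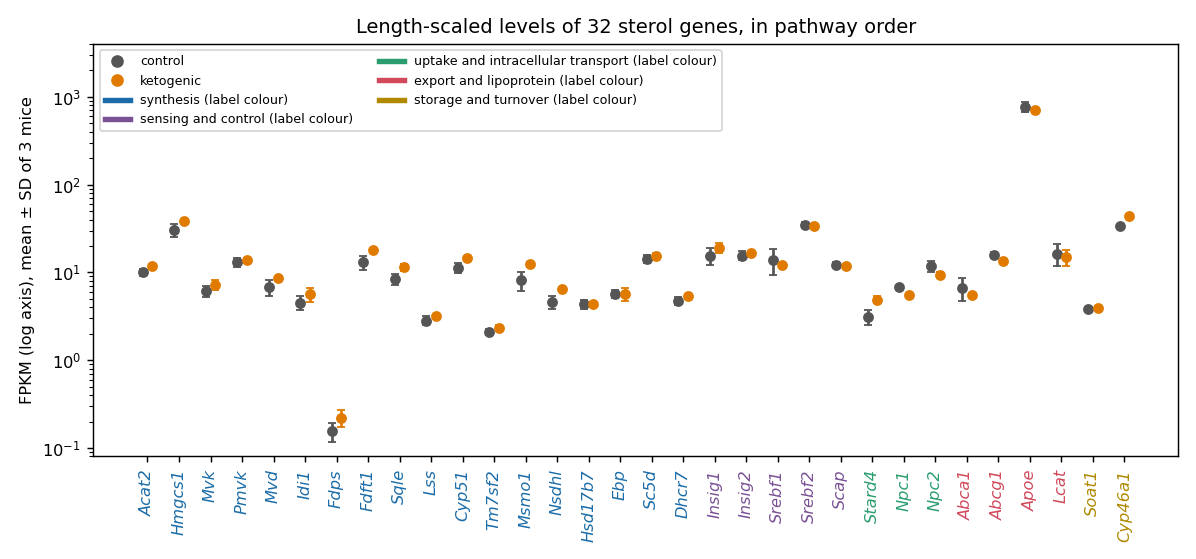
The deposited FPKM of the 32 genes is plotted on a log axis as mean ± SD of 3 mice per diet, in pathway order, with gene labels coloured by functional group. Apoe lies far above the rest at 766.9 and 713.7 FPKM, Fdps lies at 0.155 and 0.221 FPKM, and the other genes lie in between.

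Other genes of sterol handling were counted from a list of 48 chosen by function, of which 43 could be tested. None rose and 2 fell, beside 5.05% and 4.62% of all tested genes. At an unadjusted p under 0.05, 5 were higher and 7 lower, against 11.7% and 11.4% of all tested genes. Stard3, which tethers late endosomes to the endoplasmic reticulum for sterol transfer, had 28.7, 28.7 and 30.0 CPM in control and 22.05, 21.9 and 24.5 CPM in ketogenic libraries. The diets did not overlap, and the difference was -0.35 ± 0.09 (adjusted p = 0.0390). The call was lost without any library but ketogenic 3 (adjusted p up to 0.164). Cyp7b1, an oxysterol hydroxylase, had 21.4, 24.0 and 21.6 CPM in control and 18.1, 15.3 and 14.6 CPM in ketogenic libraries. All its ketogenic values lay below the controls, with a difference of -0.48 ± 0.12 (adjusted p = 0.0290), and the call was lost without control 2, ketogenic 2 or ketogenic 3 (adjusted p = 0.120, 0.130 and 0.0969). The 7 tested genes of the list that belong to synthesis and its branches had a median of 0.06, with 3 higher and 1 lower at an unadjusted p under 0.05. The median was -0.11 for the 8 tested export and lipoprotein genes, 1 higher and 2 lower at that level. It was -0.13 for the 9 tested genes of intracellular transport, 0 higher and 1 lower.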

How the data were processed

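Hippocampal messenger RNA was sequenced from 6 mice. For each library the authors deposited a raw read count and an FPKM value of every Ensembl gene. The submitters' processing notes name CASAVA, featureCounts 1.5.0-p3, DESeq2 1.10.1 and the build mm9, and no source used here gives the aligner, the strand setting or the FPKM tool. Of 53620 gene identifiers shared with GENCODE M21 (GRCm38), 97.0% have the same position there, so coordinates were read as GRCm38. The positions of Npc1, Tm7sf2 and Abcg1 differ from GENCODE M21 and are those of the deposited table. Dividing a count by gene length and by 1 size per library (0.987 to 1.02 times its total) gives the deposited FPKM.

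The main test was that of edgeR 4.0.16 under R 4.3.3 on the counts (filterByExpr, TMM scaling, quasi-likelihood F-test, no covariates). Alternatives used DESeq2 1.42.0, limma 3.58.1, other scalings and filters, pseudocounts of 1 and 0.1 on FPKM, a replicate block and left-out libraries. The standard error is the log2 difference over the square root of F, with a median of 0.13 over all genes. On simulated counts for 16239 genes of this comparison the test found 42 of the 100 genes given a 1.5-fold change and 75 of the 96 given a 2-fold change, with 13 false calls. Libraries of 1 diet differed by more than counting noise (chi-square per degree of freedom 6.21 to 18.6). The labels speak of 6 mice and of no batch. The members, gene lists and naming rule (all 32 members, other pathway genes past the threshold, and the 2 most abundant markers of 3 cell types) were chosen with earlier results of these data known, and 1 gene under that rule is not reported here. The overlapping genes Ctsb, Akap9, Rai1, 3110002H16Rik, Vps51, Gm43738 and Gm20388 and the retina marker Crx were named after values were seen. Of the 48 other genes, 1 had no row in the table.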

Additional observations from a re-analysis of the deposited data

How the results depend on the processing

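Of the 32 differences over the 16 alternatives, 436 values kept direction and side of the threshold, 44 lost a call, 13 gained one and 18 changed sign, with no called gene among the last. The 6 rises, 1 fall, 4 synthesis calls and 1593 calls over all genes became 1, 0, 0 and 936 on log2(FPKM + 1) and 0, 0, 0 and 454 on log2(FPKM + 0.1), and 0, 0, 0 and 289 without control 1 and 2, where the cause was not tested. Without a filter 30524 genes were tested and 2462 passed, with 2 members lower and 7 other pathway genes called. In DESeq2 2 members were lower. Other pathway genes called were 0 on log2(FPKM + 0.1) and 1 without control 1 and 2. With 1 library left out, calls ran from 538 to 1877 over all genes, 0 to 6 for members that rose, 0 to 4 for members that fell, 0 to 4 for synthesis, 0 to 1 for export and 0 to 3 for other pathway genes. The count over all genes was 677 with control 2 left out, 538 with ketogenic 2 left out and 885 with ketogenic 3 left out. The 6 rises became 4 without control 1, 3 without control 2, 3 without ketogenic 1, 0 without ketogenic 2 and 1 without ketogenic 3.

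Signs changed in differences that did not pass in the main analysis. With 1 library left out, Pmvk ran from -0.0081 to 0.17, Hsd17b7 from -0.062 to 0.082, Ebp from -0.16 to 0.059, Srebf1 from -0.43 to 0.047, Srebf2 from -0.079 to 0.017, Abca1 from -0.41 to 0.00080, Apoe from -0.19 to 0.0049, Lcat from -0.32 to 0.080 and Soat1 from -0.016 to 0.060. Only Srebf1 at -0.43 passed there. Without control 1 and 2, Pmvk stood at -0.090, Sc5d at -0.0055, Srebf1 at 0.34, Abca1 at 0.069 and Apoe at 0.078. The alternatives for Stard3, Cyp7b1 and the named markers were chosen after seeing the data. Kl lost its call in 3 settings, with adjusted p of 0.0520 when ketogenic 2 was left out, 0.0603 for FPKM with a pseudocount of 1 and 0.0940 with 0.1, and it stood at -1.08 without control 1 and 2 against -2.84 with all libraries.

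With the replicate block 6 members rose, 2 fell, 4 synthesis genes and 1 other pathway gene passed. It lost Cyp51 (adjusted p = 0.0525) and Stard3 (0.0516) and gained Npc2 (0.0425) and Nsdhl (0.0499). Deviations of same-numbered libraries correlated at -0.02, 0.06 and 0.03 across genes, and not every library correlated best with its own number. With 3 libraries per diet these values cannot exclude a pairing. Fdps, with 83 counts in all, was below the filter at a mean of 1 CPM and has no value there.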
